A study of Homo sapiens with 6 samples.

Results

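Nuclear-encoded respiratory chain genes were described in SH-SY5Y cells after knockdown of TARDBP. The members were the gene rows whose symbols name the nuclear subunits of NADH dehydrogenase (NDUFA, NDUFB, NDUFC, NDUFS and NDUFV), succinate dehydrogenase (SDHA to SDHD), cytochrome bc1 (UQCR and CYC1), cytochrome c oxidase (COX4 to COX8 forms) or ATP synthase (ATP5). There were 91 such rows among the 28953 counted features, which were 27961 genes and 992 families of repeated sequence. By complex there were 36 rows for complex I, 4 for complex II, 10 for complex III, 19 for complex IV with NDUFA4 and NDUFA4L2, and 18 for complex V. The other 4 rows were the ATPase inhibitor ATP5IF1, the coupling factor ATP5S, and the read-through rows ATP5MF-PTCD1 and NDUFC2-KCTD14. A further 3 antisense rows and 1 pseudogene row with matching symbols were left out.

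The oxidative phosphorylation system sits in the inner mitochondrial membrane. Complexes I and II pass electrons from NADH and succinate to ubiquinone, complex III passes them to cytochrome c, and complex IV passes them to oxygen. Complexes I, III and IV pump protons, and complex V, the ATP synthase, uses the gradient to make ATP. Most subunits are encoded in the nucleus and imported, while a few core subunits of all complexes but complex II come from mitochondrial DNA. Neurons depend heavily on this pathway. TDP-43, the product of TARDBP, binds RNA and is depleted from the nuclei of affected neurons in amyotrophic lateral sclerosis.

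SH-SY5Y is a human neuroblastoma line with features of sympathetic neurons. All 6 libraries came from cells infected with lentivirus in 8 µg/mL polybrene, spun for 1 hour at 800 g, and kept in 2 µg/mL puromycin for 3 days from 48 hours after infection. The 3 groups of 2 libraries carried 1 hairpin against TARDBP, control hairpin 1 (SHC007) or control hairpin 2 (SHC016). Since only 1 TARDBP hairpin was used, effects of TDP-43 loss and other effects of that hairpin cannot be told apart. The labels do not say that the libraries of a group came from separate cultures, so p-values measure the spread between libraries, which may be technical. In bulk RNA, fewer cells of a type and less RNA per cell cannot be told apart.

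The 6 libraries held 18605745 to 21698339 counts each, and respiratory chain rows took 0.404 to 0.579% of the counts on genes. TARDBP itself had 18.9 and 24.0 CPM (counts scaled to a common library size, with TMM factors) with the TARDBP hairpin, against 80.9 and 72.4 CPM with control hairpin 1 and 92.7 and 81.5 CPM with control hairpin 2. This was a log2 fold change of -1.93 ± 0.126 (SE) against the mean of both controls (edgeR quasi-likelihood test, adjusted p = 1.68e-05), and the groups did not overlap. The neuroblastoma markers were present, with 9 of 10 tested, and summed to 1021 to 1154 CPM in knockdown libraries, 2002 to 2247 CPM under control hairpin 1 and 1489 to 1677 CPM under control hairpin 2. TH, the enzyme that makes catecholamines, had at most 3 counts in any library. Among markers of other cell types, 1 of 6 immune, 1 of 5 endothelial and 1 of 6 glial genes had enough counts to be tested, and PTPRC, CDH5 and GFAP had at most 6, 0 and 3 counts. The tested ones were CD68, VWF and MBP. CD68 ran from 5.82 to 18.8 CPM and was lower than control hairpin 2 (log2 fold change -1.19). VWF had at most 0.93 CPM and was lower than the mean of both controls (-2.33). MBP ran from 1.13 to 1.91 CPM and was not called against that mean. All 8 fibroblast markers were tested, and their summed level was 178 to 192 CPM with the TARDBP hairpin, 1471 to 1486 CPM with control hairpin 1 and 1846 to 1963 CPM with control hairpin 2. Against the mean of both controls 6 of them were lower and DCN was higher (log2 fold change 2.43). The 4 tested of 5 epithelial markers summed to 29.2 to 35.7 CPM with the TARDBP hairpin, 10.8 to 15.2 CPM with control hairpin 1 and 82.5 to 133 CPM with control hairpin 2, with EPCAM higher (2.57) and KRT19 lower (-1.31) than the mean of both controls. The part of these shifts in the values below was not tested.

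Promoters of the family are known for sites of nuclear respiratory factor 1 (NRF1) and of ETS factors such as GABPA, the factor also called nuclear respiratory factor 2. RefSeq windows of the 250 bases before the gene start (GRCh38.p14) were matched by symbol for 70 of the 87 rows in complexes I to V. The letters GCGCA, then any base, then GCGC, read as the NRF1 motif on either strand, stood in 15 of 70 windows (21.4%), against 7.65% of the windows of all protein-coding genes. The ETS letters CCGGAAG, on either strand, stood in 17 of 70 (24.3%), against 11.8% of protein-coding windows. CCAAT, on either strand, stood in 23 of 70 (32.9%), against 34.5%. A match is a run of letters and not a measured binding site. Shown here are the windows of 2 complex IV genes with large differences between the control hairpins, of a complex IV gene that fell, and of the complex II gene with repeated NRF1 letters. COX4I1 held no NRF1 or ETS match, and COX6B1 held 1 ETS match that begins 12 bases before the start. COX5B held 1 ETS match that begins at 37 bases, and SDHA held 4 NRF1 matches that begin at 166, 117, 68 and 19 bases. Capitals mark the NRF1 or ETS letters, and all 4 windows lie on the plus strand, at chr16:85799445-85799694 for COX4I1, chr19:35648073-35648322 for COX6B1, chr2:97645812-97646061 for COX5B and chr5:218070-218319 for SDHA.
COX4I1: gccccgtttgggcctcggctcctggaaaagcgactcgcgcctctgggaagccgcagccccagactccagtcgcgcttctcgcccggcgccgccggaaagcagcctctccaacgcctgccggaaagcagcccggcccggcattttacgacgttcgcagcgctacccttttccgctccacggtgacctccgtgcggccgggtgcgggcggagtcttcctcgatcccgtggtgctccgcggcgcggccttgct
COX6B1: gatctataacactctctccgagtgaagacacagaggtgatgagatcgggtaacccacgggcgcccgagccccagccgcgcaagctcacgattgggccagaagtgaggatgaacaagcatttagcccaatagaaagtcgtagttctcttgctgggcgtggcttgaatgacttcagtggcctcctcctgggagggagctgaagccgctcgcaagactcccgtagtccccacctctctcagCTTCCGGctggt
COX5B: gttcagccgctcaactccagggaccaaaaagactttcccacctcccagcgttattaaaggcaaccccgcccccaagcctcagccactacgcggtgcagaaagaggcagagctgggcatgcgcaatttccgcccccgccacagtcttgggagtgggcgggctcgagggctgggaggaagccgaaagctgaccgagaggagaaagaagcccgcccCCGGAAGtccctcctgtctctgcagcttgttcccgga
SDHA: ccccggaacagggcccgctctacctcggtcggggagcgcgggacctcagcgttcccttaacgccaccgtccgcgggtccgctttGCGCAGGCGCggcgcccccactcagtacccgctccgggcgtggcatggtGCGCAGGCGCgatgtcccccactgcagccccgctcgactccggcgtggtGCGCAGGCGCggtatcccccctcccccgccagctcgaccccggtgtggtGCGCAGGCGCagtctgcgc

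Of the 91 rows, 85 had enough counts to be tested, and the other 6 were ATP5MGL, COX6A2, COX6B2, COX7A1, COX7B2 and COX8C. The level of the tested rows was lowest in a control library and highest in another. Over the 85 rows, log2 CPM minus the gene's mean of all libraries averaged -0.04 and -0.14 in the knockdown libraries. It was -0.30 and -0.04 in those of control hairpin 1 and 0.15 and 0.36 in those of control hairpin 2. The knockdown libraries thus fell inside the range of the control hairpin 1 libraries, and both control hairpin 2 libraries lay above the other 4. The libraries of each control hairpin stood further apart in this mean than the knockdown libraries did.

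**Figure D1:**
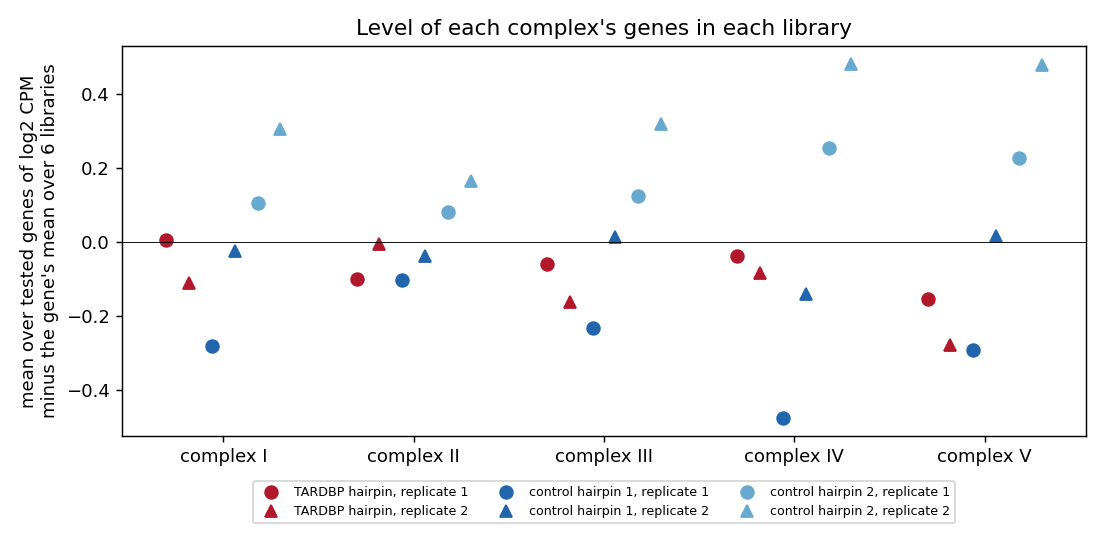
Mean deviation of log2 CPM from each gene's mean over 6 libraries (y axis), averaged over the tested genes of each complex (x axis), with 1 symbol per library. In complexes I, III, IV and V both control hairpin 2 libraries lie above the other 4, and control hairpin 1 replicate 1 is the lowest library.

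Against the mean of both control hairpins, few members were higher with the TARDBP hairpin and more were lower. Of 85 tested rows, 6 were higher and 23 lower at an adjusted p below 0.05 (edgeR), so 34.1% were called. Over all 17163 features tested, 48.2% were called, 23.9% higher and 24.3% lower. The median log2 fold change of the members was -0.10, against 0.04 for all features. Under upper quartile scaling, which moved the median of all features to 0.17, the members' median was 0.02 and the calls were 11 higher and 13 lower. Without TARDBP hairpin replicate 2, 10 members were called lower.

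The result depended on which control hairpin was used. Against control hairpin 1, 13 members were higher and 10 lower with the TARDBP hairpin (27.1% called, against 42.9% of all features, 21.1% higher and 21.8% lower), and their median was 0.04. Against control hairpin 2, 5 were higher and 34 lower (45.9% called, against 50.2% of all features, 24% higher and 26.2% lower), and their median was -0.29, while that of all features was 0.02. With upper quartile scaling these counts were 19 higher and 6 lower against control hairpin 1, and 7 higher and 24 lower against control hairpin 2. Both comparisons share the knockdown libraries. Without control hairpin 1 replicate 1, 3 members were higher than control hairpin 1 and the median was -0.13, and without TARDBP hairpin replicate 1, 5 were. Without TARDBP hairpin replicate 2 or control hairpin 1 replicate 2, 4 members were lower than control hairpin 1. Against control hairpin 2 the counts were 3 higher and 18 lower without TARDBP hairpin replicate 2, and 3 higher and 16 lower without control hairpin 2 replicate 2.

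The control hairpins also differed from each other in 36 members. With control hairpin 2, 33 members were higher and 3 lower than with control hairpin 1 (42.4% called, against 43.2% of all features). By direction this was 38.8% of the members higher and 3.53% lower, against 22.8% and 20.4% of all features. The members' median was 0.40 and that of all features -0.01, and 76 of 85 values were above 0. Leaving out control hairpin 1 replicate 1 left 10 members higher, and leaving out control hairpin 2 replicate 2 left 11. The 3 lower members were UQCRB, UQCR10 and NDUFV2, and 1 of them was called in each of 3 fits that left out control hairpin 1 replicate 2 or either control hairpin 2 library.

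**Figure D2:**
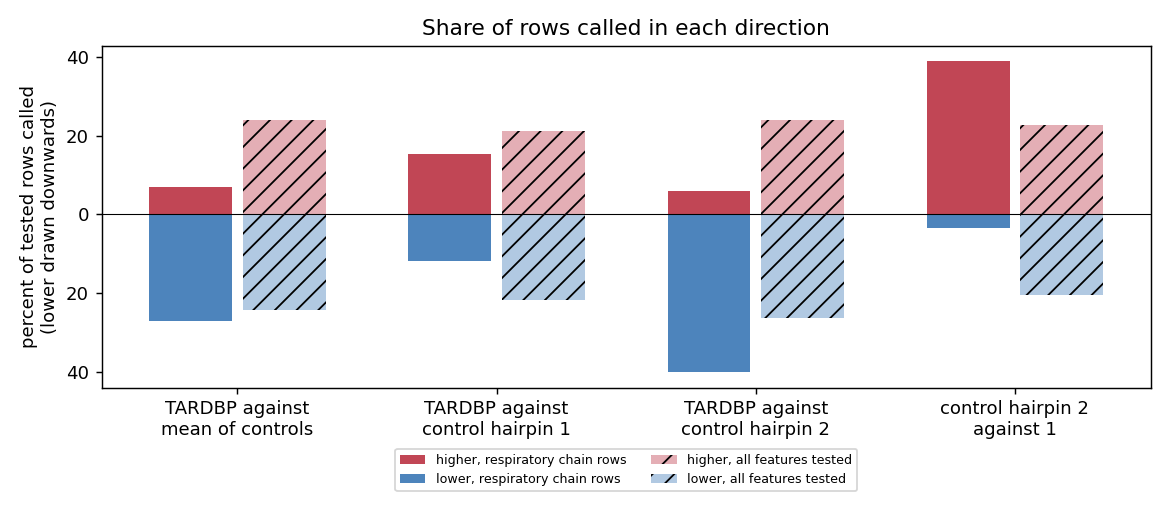
Percent of tested rows called higher (above 0) and lower (drawn below 0) at an adjusted p below 0.05 in each of 4 comparisons. Solid bars are the 85 respiratory chain rows and hatched bars all 17163 features: 40% of the members but 26.2% of all features were lower with the TARDBP hairpin than with control hairpin 2.

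Few members moved against both controls. Higher than each control hairpin, with both calls, were NDUFB5, SDHC and UQCRB, which is 3 of 85 against 10.6% of all features. Lower than each were ATP5F1B, ATP5MC3, ATP5ME, ATP5PB, COX5B, NDUFS4, SDHA, UQCRC2 and UQCRFS1, which is 9 of 85 against 14% of all features. Both calls were kept without any 1 library for NDUFB5, ATP5F1B, ATP5PB and UQCRC2, and each of the others lost its call against control hairpin 1 without at least 1 library. With edgeR 0 members were called in opposite directions against the controls (2 at unadjusted p below 0.05, and 1 with DESeq2), and 2.96% of all features were. In 6 members both knockdown libraries lay above all 4 control libraries (23.3% of all features), and in 17 both lay below (22.8%). For 41 members the knockdown mean lay between the control means, and 29 members were called in none of the 4 comparisons. The shares of all features with these 2 patterns were not taken, so neither count can be set against them.

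**Figure D3:**
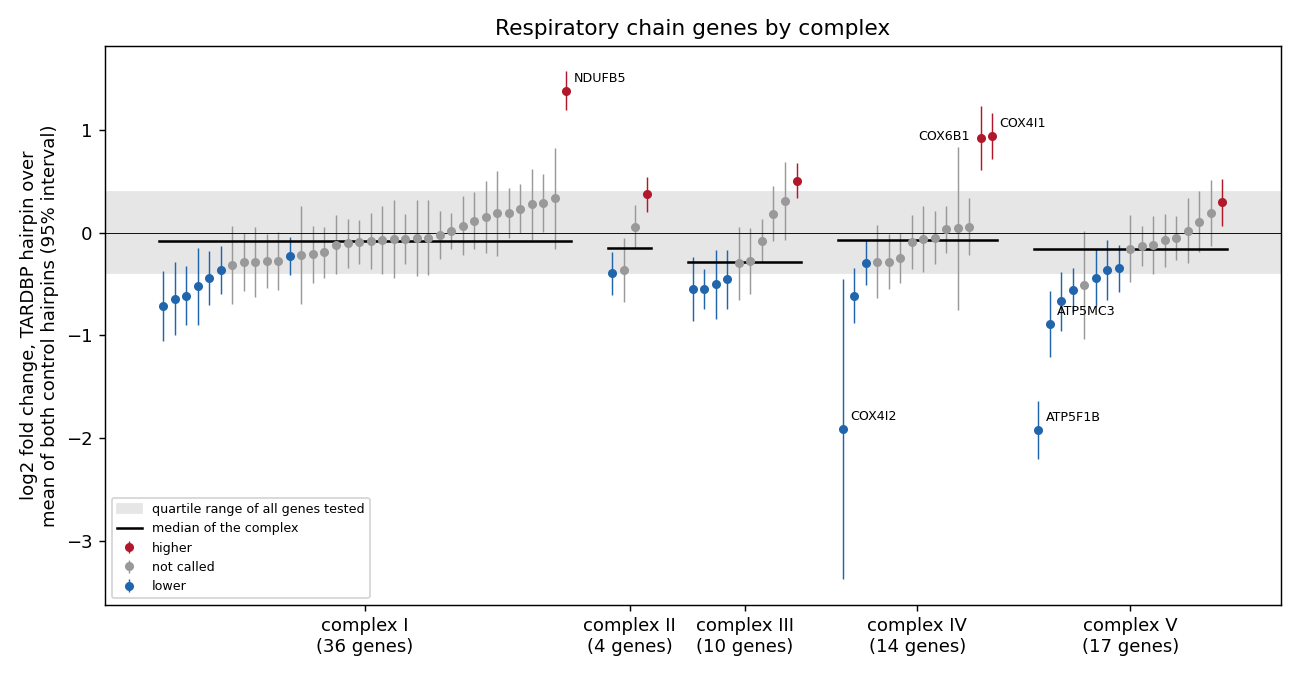
Log2 fold change of the TARDBP hairpin over the mean of both control hairpins (y axis), with its 95% interval, for each tested gene, ordered by value within its complex (x axis). The grey band spans the lower to the upper quartile of all genes tested (-0.39 to 0.39), and the points furthest from it are NDUFB5, COX4I1 and COX6B1 above and COX4I2, ATP5F1B and ATP5MC3 below.

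Complex I, with all 36 rows tested, had 1 member higher and 7 lower against the mean of both controls. These were 2.78% and 19.4%, against 23.9% and 24.3% of all features. The median of -0.08 became 0.04 under upper quartile scaling, with 5 higher and 4 lower. Without TARDBP hairpin replicate 2, 3 were lower. Against control hairpin 1 there were 4 higher and 2 lower (11.1% and 5.56%, against 21.1% and 21.8% of all features). Against control hairpin 2 there were 2 higher and 11 lower (5.56% and 30.6%, against 24% and 26.2%). Under upper quartile scaling these counts were 7 higher and 1 lower, and 3 higher and 7 lower. Most of the 11 calls lower than control hairpin 2 were lost without TARDBP hairpin replicate 2 or control hairpin 2 replicate 2. Among the 7 core subunits, which carry the flavin, iron-sulphur clusters and ubiquinone site, 3 were lower. Among them were NDUFV1, the subunit that binds NADH (log2 fold change -0.36, a call lost under upper quartile scaling and without TARDBP hairpin replicate 2), and NDUFS3 (-0.44, lost without TARDBP hairpin replicate 1). Against the mean of both controls, the 12 NDUFA accessory subunits held 0 calls with edgeR or DESeq2 and 1 unadjusted p below 0.05. Against control hairpin 2 they held 3 lower (25%), NDUFA2, NDUFA11 and NDUFA13, and upper quartile scaling ended all 3 calls. The 4 NDUFS and NDUFV accessory subunits held 2 lower than the mean of both controls. Of the 13 NDUFB and NDUFC subunits, 1 was higher and 2 lower than that mean.

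NDUFB5, an accessory subunit of the membrane arm encoded on chromosome 3, was the member with the largest rise against the mean of both controls. It had 52.9 and 51.5 CPM with the TARDBP hairpin, against 11.5 and 11.8 CPM with control hairpin 1 and 33.4 and 35.6 CPM with control hairpin 2. The 3 groups were fully separate, with control hairpin 1 the lowest. The knockdown was 4.49-fold above control hairpin 1 (edgeR adjusted p = 6.78e-06) and 1.51-fold above control hairpin 2 (adjusted p = 0.00142). The control hairpins differed from each other by 2.97-fold (adjusted p = 3.89e-05), more than the knockdown differed from control hairpin 2.

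NDUFS4, an accessory subunit whose loss causes Leigh syndrome, had 8.69 and 8.00 CPM with the TARDBP hairpin, against 10.9 and 14.004 CPM with control hairpin 1 and 13.8 and 16.2 CPM with control hairpin 2. It fell by 0.71 ± 0.149 (SE) on the log2 scale against the mean of both controls (edgeR adjusted p = 0.00477), and the knockdown libraries lay below all controls. NDUFS5, an accessory subunit on the intermembrane side, had 52.3 and 49.4 CPM with the TARDBP hairpin, against 50.7 and 73.5 CPM with control hairpin 1 and 90.4 and 111.9 CPM with control hairpin 2. Its knockdown libraries overlapped with control hairpin 1, and the call (log2 fold change -0.64, edgeR adjusted p = 0.00916) was lost without TARDBP hairpin replicate 2. NDUFB2, another membrane arm subunit, had 34.5 and 29.2 CPM with the TARDBP hairpin, against 37.5 and 46.3 CPM with control hairpin 1 and 52.3 and 60.6 CPM with control hairpin 2. The knockdown libraries were the lowest (log2 fold change -0.61, edgeR adjusted p = 0.00422). Strand use in counting is not known, and NDUFB2 has an antisense row of its own.

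Complex II, succinate dehydrogenase, is also an enzyme of the citric acid cycle and has no subunit from mitochondrial DNA. Against the mean of both controls its 2 catalytic subunits had values below 0 and its 2 membrane anchors values above 0. These signs did not hold against each control alone, since SDHB was 0.0065 against control hairpin 1 and SDHD was -0.024 against control hairpin 2. SDHA, the flavoprotein, had 28.1 and 32.05 CPM with the TARDBP hairpin, against 41.3 and 40.2 CPM with control hairpin 1 and 38.01 and 38.7 CPM with control hairpin 2. It was 1.31-fold lower than the mean of both controls (edgeR adjusted p = 0.00799), a call lost without TARDBP hairpin replicate 1. The groups did not overlap, although SDHA shares sequence with pseudogene copies. SDHC, an anchor of the ubiquinone site, had 86.3 and 93.0 CPM with the TARDBP hairpin, against 71.0 and 69.5 CPM with control hairpin 1 and 66.5 and 69.7 CPM with control hairpin 2. It was 1.30-fold higher (edgeR adjusted p = 0.00385), with both knockdown libraries above all controls. SDHB, the iron-sulphur subunit, had 18.8 and 18.2 CPM with the TARDBP hairpin, against 16.3 and 20.6 CPM with control hairpin 1 and 27.4 and 34.2 CPM with control hairpin 2. Here control hairpin 2 stood apart: SDHB was lower than control hairpin 2 (log2 fold change -0.73, edgeR adjusted p = 0.00498) and did not pass against the mean of both (-0.36, adjusted p = 0.0565), although it did with RLE scaling (-0.38, adjusted p = 0.0473). SDHD ran from 23.9 to 27.6 CPM over all 6 libraries, and its difference from the mean of both controls was 0.06 (95% interval -0.15 to 0.27).

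Complex III had 1 member higher and 4 lower of 10 against the mean of both controls (10% and 40%, against 23.9% and 24.3% of all features). The median was -0.29 and stayed below 0 under each scaling. The count lower was 2 under upper quartile scaling and 1 without TARDBP hairpin replicate 2. Against control hairpin 2 its median was -0.60, with 2 higher and 7 lower (20% and 70%, against 24% and 26.2% of all features). Under upper quartile scaling 2 were higher and 6 lower. Most of the 7 calls lower were lost without control hairpin 2 replicate 2. Against control hairpin 1 the median was -0.0033, with 2 higher and 2 lower (20% each, against 21.1% and 21.8%). It turned to 0.10 under upper quartile scaling. The core proteins of the matrix side and the Rieske protein were lower than the mean of both controls. Of the 5 small subunits, UQCRB, near the ubiquinone site, was higher and UQCRQ was lower (log2 fold change -0.46). The call of UQCRQ was lost under upper quartile scaling (edgeR adjusted p = 0.0525) and without TARDBP hairpin replicate 2. UQCRB had 70.5 and 72.7 CPM with the TARDBP hairpin, against 57.9 and 59.5 CPM with control hairpin 1 and 44.4 and 41.98 CPM with control hairpin 2. All 3 groups were separate, and UQCRB was 1.42-fold higher than the mean of both controls (edgeR adjusted p = 0.000857). It was the member with the largest rise against control hairpin 2 (log2 fold change 0.73). Its smaller rise over control hairpin 1 (0.29, edgeR adjusted p = 0.0288) was called in 1 of the 6 fits that left out a library.

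UQCRC2, a core protein, had 36.2 and 39.4 CPM with the TARDBP hairpin, against 50.4 and 54.0 CPM with control hairpin 1 and 58.9 and 57.8 CPM with control hairpin 2. It was 1.46-fold lower (edgeR adjusted p = 0.0011) and its call was kept without any 1 library. Its partner UQCRC1 had 46.6 and 36.8 CPM with the TARDBP hairpin, against 46.6 and 55.8 CPM with control hairpin 1 and 58.9 and 77.2 CPM with control hairpin 2. TARDBP hairpin replicate 1 and control hairpin 1 replicate 1 had nearly equal values, and the call (log2 fold change -0.50, edgeR adjusted p = 0.021) was lost under upper quartile scaling (adjusted p = 0.0538) and without TARDBP hairpin replicate 2 or control hairpin 1 replicate 2. UQCRFS1, the Rieske iron-sulphur protein, had 18.5 and 18.7 CPM with the TARDBP hairpin, against 21.7 and 29.0 CPM with control hairpin 1 and 26.9 and 31.2 CPM with control hairpin 2. Both knockdown libraries were the lowest (log2 fold change -0.55, edgeR adjusted p = 0.0113), but the call was lost without either of them. CYC1, the cytochrome c1 that hands electrons to cytochrome c, had 41.0 and 32.7 CPM with the TARDBP hairpin, against 33.9 and 38.2 CPM with control hairpin 1 and 47.6 and 62.8 CPM with control hairpin 2. It did not pass against the mean of both controls (log2 fold change -0.28, edgeR adjusted p = 0.137). CYC1 was lower than control hairpin 2 (-0.58), a call lost without TARDBP hairpin replicate 2 or control hairpin 2 replicate 2. With control hairpin 2 it was higher than with control hairpin 1 (0.61). UQCRH and its retrocopy UQCRHL on chromosome 1 share sequence, so counts on either are uncertain. UQCRHL was higher than control hairpin 1 (log2 fold change 0.86), a call lost without control hairpin 1 replicate 1, and UQCRH was not (0.17).

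Complex IV had 14 tested rows, of which 2 were higher and 3 lower against the mean of both controls (14.3% and 21.4%, against 23.9% and 24.3% of all features). Its median was -0.07 against the mean of both controls and 0.05 under upper quartile scaling. Without TARDBP hairpin replicate 2 or either control hairpin 2 library, 1 was lower. Against control hairpin 2 all 14 values were below 0 and 5 were called lower (35.7%, against 26.2% of all features), with 3 lower under upper quartile scaling. Most of these 5 calls were lost without TARDBP hairpin replicate 2 or control hairpin 2 replicate 2. Its largest differences lay between the controls, in COX4I1 and COX6B1.

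COX4I1, the common form of the subunit through which ATP regulates the enzyme, had 102 and 92.7 CPM with the TARDBP hairpin, against 19.9 and 23.1 CPM with control hairpin 1 and 109 and 128 CPM with control hairpin 2. It was 4.52-fold above control hairpin 1 (edgeR adjusted p = 1.15e-05). Its difference from control hairpin 2 was -0.28 (95% interval -0.54 to -0.02), which did not pass after adjustment (edgeR adjusted p = 0.0678). Control hairpin 1 was the group that stood apart, and control hairpin 2 was 5.50-fold above it (adjusted p = 1.98e-05). The same order held for COX6B1, a subunit that faces the intermembrane space. It had 63.7 and 56.5 CPM with the TARDBP hairpin, against 11.4 and 16.1 CPM with control hairpin 1 and 66.5 and 80.0 CPM with control hairpin 2. It was 4.36-fold above control hairpin 1 (edgeR adjusted p = 4.8e-05), while the difference from control hairpin 2 was -0.29 (95% interval -0.64 to 0.07). The called rise of both genes against the mean of both controls (log2 fold changes 0.95 and 0.92) thus came with low values in 1 control hairpin, and neither gene had both knockdown libraries above all 4 control libraries. Neither call, nor that of either gene over control hairpin 1, was lost without any 1 library.

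**Figure D4:**
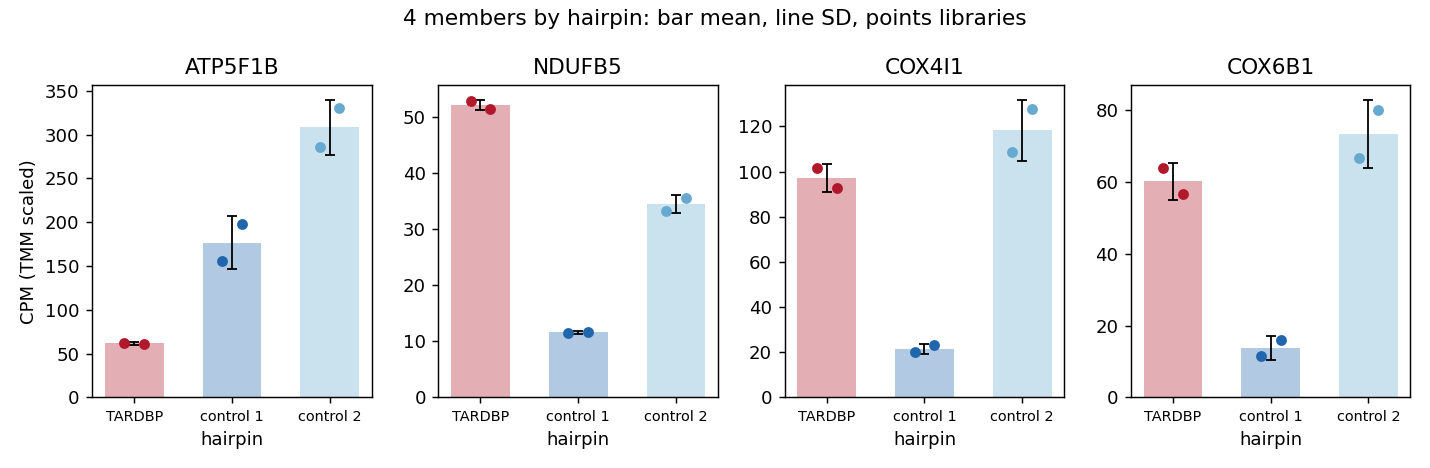
CPM scaled by TMM (y axis) of 4 members by hairpin (x axis: TARDBP, control 1, control 2), with bars for the mean, lines for the SD and points for the 2 libraries. ATP5F1B is lowest with the TARDBP hairpin, and NDUFB5, COX4I1 and COX6B1 are lowest with control hairpin 1.

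COX5B, a subunit that binds zinc, fell against both controls. It had 41.3 and 36.3 CPM with the TARDBP hairpin, against 53.6 and 62.4 CPM with control hairpin 1 and 54.7 and 66.5 CPM with control hairpin 2. The control hairpins overlapped with each other and lay above both knockdown libraries, and the fall was 1.53-fold (edgeR adjusted p = 0.00297). COX7A2L, a factor for supercomplexes of complexes III and IV, had 65.9 and 54.6 CPM with the TARDBP hairpin, against 73.6 and 68.7 CPM with control hairpin 1 and 73.9 and 78.7 CPM with control hairpin 2. It was 1.22-fold lower (edgeR adjusted p = 0.0357), a call that upper quartile scaling ended (adjusted p = 0.181) and that was also lost without TARDBP hairpin replicate 2, control hairpin 1 replicate 1 or either control hairpin 2 library.

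Several complex IV subunits have alternative forms that replace the common one in particular tissues. COX4I2, the form of subunit 4 known from lung and hypoxia, was near the detection floor, at 0.103 and 0.208 CPM with the TARDBP hairpin, against 0.255 and 0.783 CPM with control hairpin 1 and 0.579 and 0.801 CPM with control hairpin 2. Its call against the mean of both controls (log2 fold change -1.91, edgeR adjusted p = 0.0365) was kept in 1 of 6 fits that left out a library. The muscle form COX6A2 had at most 2 counts in any library, the muscle form COX7A1 at most 4, and COX7B2 had 0 in all. The testis forms COX6B2 and COX8C had at most 17 and 5 counts. NDUFA4L2 lay between 0.343 and 0.801 CPM in all libraries and had no call. The common forms COX6A1, COX7A2, COX7B, COX8A and NDUFA4 had log2 fold changes from -0.28 to 0.06 against the mean of both controls, and none was called. COX7B was lower than control hairpin 2 (-0.61, edgeR adjusted p = 0.00615).

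Complex V had 17 tested rows, of which 1 was higher and 7 lower against the mean of both controls, a larger share lower than in complex I (41.2% against 19.4%, and 24.3% of all features), though that difference was not tested. Its median was -0.15 against the mean of both controls and -0.03 under upper quartile scaling, where 4 were lower, as without TARDBP hairpin replicate 2. All 17 members had higher values with control hairpin 2 than with control hairpin 1, and 10 were called (58.8%, against 22.8% of all features). Without control hairpin 1 replicate 1, 3 were called. Against control hairpin 2 the TARDBP hairpin had 8 members lower (47.1%, against 26.2% of all features) and 0 higher (edgeR, with 0 higher also at an unadjusted p below 0.05 and with DESeq2). Under upper quartile scaling 7 were lower and 1 higher.

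ATP5F1B, on chromosome 12, encodes the β subunit of the F1 head, where ATP is made. It had 62.7 and 60.6 CPM with the TARDBP hairpin, against 156 and 198 CPM with control hairpin 1 and 286 and 331 CPM with control hairpin 2. All 3 groups were separate and the knockdown was the lowest, 2.87-fold below control hairpin 1 (edgeR adjusted p = 6.46e-05) and 5.00-fold below control hairpin 2 (adjusted p = 1.12e-05). The control hairpins differed from each other as well, with control hairpin 2 higher by 1.74-fold (adjusted p = 0.0016). ATP5F1A, which encodes the α subunit that alternates with β in the same ring, had 233 and 214 CPM with the TARDBP hairpin, against 225 and 244 CPM with control hairpin 1 and 241 and 269 CPM with control hairpin 2. It did not pass in any comparison, and its difference from the mean of both controls was -0.13 (95% interval -0.32 to 0.06). ATP5F1C, the γ subunit of the rotor, had 36.8 and 39.3 CPM with the TARDBP hairpin, against 38.9 and 46.3 CPM with control hairpin 1 and 52.9 and 56.8 CPM with control hairpin 2. It was lower (log2 fold change -0.35, edgeR adjusted p = 0.0198), overlapping control hairpin 1, and the call was lost under upper quartile scaling (adjusted p = 0.0846) and without either knockdown library.

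The c subunit of the rotor ring is encoded by 3 genes with the same mature protein, ATP5MC1, ATP5MC2 and ATP5MC3, and their values differed. ATP5MC3 had 27.9 and 23.7 CPM with the TARDBP hairpin, against 32.8 and 41.8 CPM with control hairpin 1 and 55.0 and 67.7 CPM with control hairpin 2. It was 1.85-fold lower than the mean of both controls (edgeR adjusted p = 0.00121), with all 3 groups separate. ATP5MC1 had 27.0 and 23.1 CPM with the TARDBP hairpin, against 13.2 and 17.7 CPM with control hairpin 1 and 28.5 and 33.7 CPM with control hairpin 2. Only its comparison with control hairpin 1 passed among those of the knockdown (log2 fold change 0.70, edgeR adjusted p = 0.0105), and that call was lost without TARDBP hairpin replicate 1 or control hairpin 1 replicate 1. ATP5MC2 had 88.8 and 77.7 CPM with the TARDBP hairpin, against 58.4 and 72.7 CPM with control hairpin 1 and 87.5 and 118 CPM with control hairpin 2. It passed in no comparison of the knockdown, and its value against the mean of both controls was 0.02 (95% interval -0.29 to 0.34). All 3 genes were higher with control hairpin 2 than with control hairpin 1, by log2 fold changes of 1.01, 0.65 and 0.72 for ATP5MC1, ATP5MC2 and ATP5MC3 (edgeR adjusted p = 0.00198, 0.0121 and 0.0064). The calls of ATP5MC2 and ATP5MC3 were lost without control hairpin 1 replicate 1, and that of ATP5MC2 also without control hairpin 2 replicate 2.

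In the stalk that holds the head in place, ATP5PB and ATP5PD moved apart. ATP5PB, subunit b, had 34.2 and 31.5 CPM with the TARDBP hairpin, against 45.6 and 50.2 CPM with control hairpin 1 and 46.4 and 51.1 CPM with control hairpin 2. The control hairpins overlapped with each other, and both knockdown libraries lay below them (log2 fold change -0.56, edgeR adjusted p = 0.00169). ATP5PD, subunit d, had 79.8 and 77.2 CPM with the TARDBP hairpin, against 57.8 and 64.2 CPM with control hairpin 1 and 59.8 and 73.8 CPM with control hairpin 2. Its rise of 1.23-fold (edgeR adjusted p = 0.0372) was lost with DESeq2 (adjusted p = 0.0605), without the filter on low counts (adjusted p = 0.062) and without either knockdown library or the first replicate of either control hairpin. Among the small membrane subunits, ATP5ME, subunit e of the dimer interface, had 25.9 and 27.7 CPM with the TARDBP hairpin, against 33.2 and 39.96 CPM with control hairpin 1 and 44.1 and 54.8 CPM with control hairpin 2. The groups were separate and ATP5ME was 1.59-fold lower than the mean of both controls (edgeR adjusted p = 0.00273). ATP5MF and ATP5MPL were lower as well (log2 fold changes -0.44 and -0.36), with knockdown values that overlapped control hairpin 1. Upper quartile scaling ended both calls (adjusted p = 0.0548 and 0.141). The call of ATP5MF was also lost without TARDBP hairpin replicate 2, and that of ATP5MPL without either knockdown library or the second replicate of either control hairpin. ATP5IF1, which inhibits ATP hydrolysis, passed in no comparison (0.22 against the mean of both controls, 95% interval -0.03 to 0.46).

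Rows whose promoter window held the NRF1 letters were 14 among those tested, and 0 were higher and 6 lower with the TARDBP hairpin than the mean of both controls, with a median of -0.31. These 6 are to be read beside the 24.3% of all features that were lower, and they became 2 without either knockdown library and 3 under upper quartile scaling. The 52 tested rows with a window but no such letters had 3 higher and 10 lower and a median of -0.08. Called members without a matched window are in neither group. Among them are NDUFB5, SDHC and UQCRB, which were higher, and ATP5F1B, ATP5MC3 and NDUFS5, which were lower. Against control hairpin 1 the medians were -0.01 with the letters and 0.04 without, and against control hairpin 2 they were -0.46 and -0.29. With control hairpin 2 over control hairpin 1, 5 of the 14 were higher and 0 lower (median 0.42), and 0 were higher without control hairpin 1 replicate 1 or control hairpin 2 replicate 2. Over all features 22.8% were higher in that comparison of the controls. For ETS letters the medians against the mean of both controls were -0.09 in 17 rows with them and -0.10 in 49 without. These counts are descriptions, and the differences between them were not tested. NRF1 itself ran from 9.40 to 13.1 CPM over the 6 libraries and GABPA from 24.6 to 35.8 CPM, and neither passed against the mean of both controls. PPARGC1B, a coactivator of respiratory genes, had 6.10 and 5.82 CPM with the TARDBP hairpin, against 1.38 and 1.18 CPM with control hairpin 1 and 5.16 and 6.83 CPM with control hairpin 2, so that control hairpin 1 stood apart as it did for COX4I1. Values of PPARGC1A, in the same list, went the other way. They were -1.50 against control hairpin 1 and 0.45 against control hairpin 2 (log2 fold changes). POLG, the polymerase of mitochondrial DNA, had 17.2 and 19.2 CPM with the TARDBP hairpin, against 42.6 and 40.1 CPM with control hairpin 1 and 46.8 and 44.2 CPM with control hairpin 2. It was lower by a log2 fold change of -1.25 (edgeR adjusted p = 3.67e-05). Of the 18 regulators of respiratory genes and mitochondrial transcription, 1 was higher and 6 lower, with a median of -0.14. These were 5.56% and 33.3%, against 23.9% and 24.3% of all features. The others named by the rule were TWNK, the mitochondrial helicase (-0.59), and the transcription factor SP1 (-0.44).

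Factors that assemble the complexes were called in both directions. Of 18 complex I assembly factors, 5 were higher and 2 lower than the mean of both controls (27.8% and 11.1%, against 23.9% and 24.3% of all features), with a median of 0.16. Upper quartile scaling gave 9 higher and 1 lower. NDUFAF6 had 57.7 and 78.9 CPM with the TARDBP hairpin, against 30.9 and 31.97 CPM with control hairpin 1 and 27.3 and 26.1 CPM with control hairpin 2, and rose by a log2 fold change of 1.24 (edgeR adjusted p = 0.000111). ECSIT had 9.10 and 7.32 CPM with the TARDBP hairpin, against 15.04 and 19.8 CPM with control hairpin 1 and 20.1 and 26.1 CPM with control hairpin 2, and fell by 1.29 on the log2 scale (edgeR adjusted p = 0.000627). For both genes the groups of controls and knockdown did not overlap, nor did they for DMAC1 (0.65) and NDUFAF4 (0.69), which were higher. Of 38 assembly factors for complexes II to V, 7 were higher and 8 lower (18.4% and 21.1%), with a median of -0.06. Their split turned with the control, with 9 higher and 5 lower against control hairpin 1 (23.7% and 13.2%, against 21.1% and 21.8% of all features). Against control hairpin 2 it was 3 higher and 9 lower (7.89% and 23.7%, against 24% and 26.2%). Against the mean of both controls it was 10 higher and 3 lower under upper quartile scaling, and 3 higher and 2 lower without TARDBP hairpin replicate 2. LYRM7 (0.98) and UQCC1 (0.43) for complex III and SDHAF4 for complex II (0.84) were higher, and ATPAF2, which helps build the F1 head, was lower (-0.81). LYRM7 was low in control hairpin 1, with values of 1.60 against that hairpin and 0.35 against control hairpin 2 (edgeR adjusted p = 0.064).

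In lists around the chain more genes were lower than higher against the mean of both controls. Of 20 genes for electron carriers and ubiquinone synthesis, 2 were higher and 5 lower, with a median of 0.01. The share lower was 25%, near the 24.3% of all features, and 10 values lay on each side of 0. Without TARDBP hairpin replicate 1, 0 were higher and 3 lower. COQ9, needed for ubiquinone synthesis, had 8.43 and 10.0 CPM with the TARDBP hairpin, against 26.5 and 25.5 CPM with control hairpin 1 and 26.7 and 27.8 CPM with control hairpin 2 (log2 fold change -1.53, edgeR adjusted p = 3.33e-05). CYCS, the gene of cytochrome c, had 60.6 and 58.0 CPM with the TARDBP hairpin, against 81.8 and 91.7 CPM with control hairpin 1 and 126 and 132 CPM with control hairpin 2 (log2 fold change -0.84, edgeR adjusted p = 0.000124). In both the knockdown libraries lay below all controls, as they did for PDSS1 (-0.94) and ETFA (-0.41). Of 13 citric acid cycle enzymes, 1 was higher and 6 lower (46.2% lower, median -0.18; 4 lower under upper quartile scaling or without either knockdown library), and IDH3B (-0.93), DLD (-0.74) and OGDH (-0.48) were among the lower ones. Of 21 outer membrane channels and import factors, 3 were higher and 10 lower (47.6% lower, median -0.34), among them TIMM13 (-1.21), TOMM5 (-0.99), TOMM20 (-0.81) and TIMM8B (-0.75). In the import list 11 genes were higher and 0 lower with control hairpin 2 than with control hairpin 1, and 6 were higher without control hairpin 1 replicate 1 or control hairpin 2 replicate 2. Over all features 22.8% were higher and 20.4% lower with control hairpin 2 than with control hairpin 1. Of 13 mitochondrially encoded subunits looked for by symbol, 0 had a row in the counts, so they were not analysed here.

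**Figure D5:**
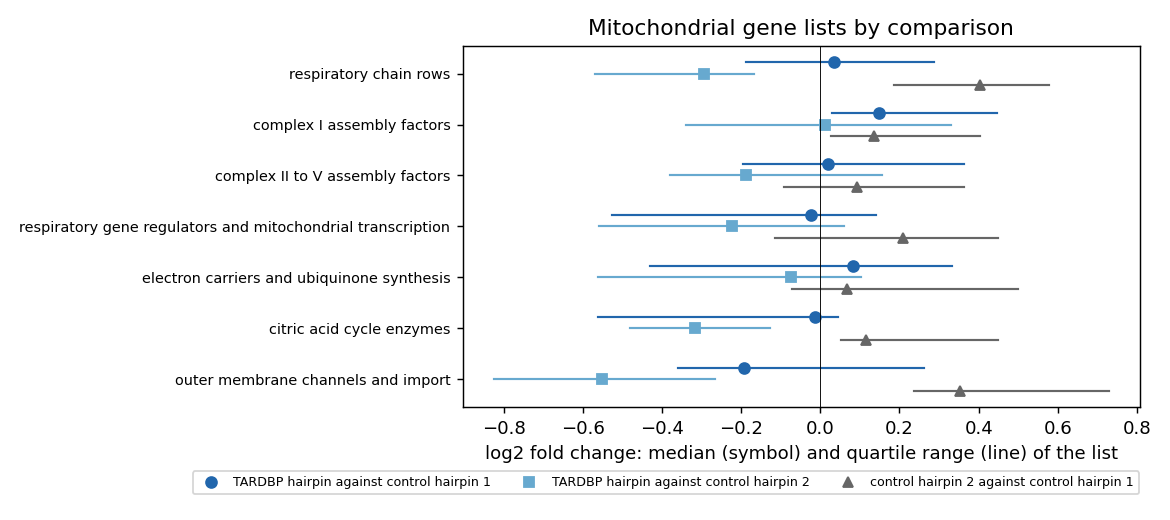
Median (symbol) and quartile range (line) of the log2 fold changes (x axis) of the respiratory chain rows and of 6 other mitochondrial lists (y axis), for the TARDBP hairpin against control hairpin 1 and control hairpin 2 and for control hairpin 2 against control hairpin 1. The respiratory chain rows have medians of 0.04, -0.29 and 0.40 in these comparisons, and the import list of -0.19, -0.55 and 0.35.

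Proliferation genes differed among the same groups by more than the respiratory genes. Of 20 such genes, 18 were lower and 1 higher with the TARDBP hairpin than the mean of both controls (median -1.85), and 19 were higher with control hairpin 2 than with control hairpin 1 (median 2.06). Over all features 24.3% were lower in the first of these comparisons and 22.8% higher in the second. MKI67, a marker of cycling cells, had 1.14 and 0.883 CPM with the TARDBP hairpin, against 32.3 and 65.0 CPM with control hairpin 1 and 196 and 209 CPM with control hairpin 2. MCM2, TOP2A and RRM2 were in the same order, with log2 fold changes of -1.84, -3.89 and -3.28 against the mean of both controls. The summed level of the list was 340 to 368 CPM with the TARDBP hairpin, 431 to 530 CPM with control hairpin 1 and 1360 to 1491 CPM with control hairpin 2. Its part in the differences of the respiratory chain genes was not tested.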

How the data were processed

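The 6 RNA-seq libraries were made from Trizol RNA after removal of ribosomal RNA, with a strand-specific kit, per the labels' protocols. The submitters' processing notes name bcl2fastq, STAR 2.5.2b and hg19. Each library has 1 deposited table of raw counts by gene symbol and by repeat family, per the file headers. The counter, annotation and strand setting that the authors used were not given in the sources used here, so overlapping, antisense, retrocopied and read-through genes cannot be separated.

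All features were analysed in R 4.3.3 with edgeR 4.0.16. Of 28953 features, 17163 passed filterByExpr by group (minimum count 10, minimum total 15). Libraries were scaled by TMM, and 1 quasi-likelihood fit over the 6 libraries held the 3 groups (3 residual degrees of freedom, biological coefficient of variation 10.5%). Benjamini-Hochberg adjustment ran over all features in each of 4 comparisons. A feature was called, and is written of as higher, lower, risen or fallen, at an adjusted p below 0.05. Standard errors were taken as |log2 fold change| divided by √F. The code was first tested on simulated counts.

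The members and lists were chosen with earlier results of these data known. Genes named with values were TARDBP, up to 3 called members per direction in complexes I, III, IV and V with mean log2 CPM of at least 3, all complex II members, alternative forms, and up to 4 called genes with the lowest p in each other list. Other members named here were chosen after their values were seen, and some genes that the rule names are not reported here. Alternatives were RLE and upper quartile scaling, no filter, DESeq2 1.42.0, genes only, a replicate block, a test against a 1.2-fold change, 4 controls as 1 group, and leaving out each library. Promoter windows came from RefSeq on GRCh38.p14, matched by symbol, and not from the authors' build.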

Additional observations from a re-analysis of the deposited data

How the results depend on the processing

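The changes of 4 members (ATP5F1B, NDUFB5, COX4I1 and COX6B1 against the mean of both controls) kept their call in each of the 6 fits that left out a library, and lost it, except ATP5F1B, only when the 4 control libraries formed 1 group. That fit called 0 members higher, 4 lower (ATP5F1B, ATP5PB, COX5B and UQCRC2) and 2572 features in all, since the difference between the control hairpins enters its spread. Upper quartile scaling gave 11 members higher and 13 lower against the mean of both controls, 6 lower against control hairpin 1, and medians for complex II of -0.029, 0.17, -0.041 and 0.014 against the mean of both controls, control hairpin 1, control hairpin 2 and between the controls. With genes only, the median of complex II against control hairpin 2 was -0.14. The test against a 1.2-fold change gave 10 members lower than the mean of both controls, 6 higher and 4 lower than control hairpin 1, 2 higher than control hairpin 2, and 1 lower between the controls.

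Leaving out 1 library at a time gave 10 to 27 members lower against the mean of both controls, 3 to 14 higher and 4 to 11 lower against control hairpin 1, and 3 to 5 higher and 16 to 36 lower against control hairpin 2. Between the controls it gave 10 to 38 members higher, 1 to 3 lower and 4328 to 7344 features called. The members' median against control hairpin 1 ran from -0.13 to 0.16, and the median of complex II from -0.18 to -0.093 against the mean of both controls, -0.011 to 0.15 against control hairpin 1 and -0.27 to -0.11 against control hairpin 2. The cause was not tested. DESeq2 and RLE scaling called 26 and 30 members against the mean of both controls, where the main count was 29.

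The signs of small values with no call turned under some alternatives. COX6A1 was 0.035 with upper quartile scaling. Without 1 library at a time, COX6A1 ran from -0.23 to 0.037, SDHD from -0.011 to 0.12, ATP5MC2 from -0.083 to 0.11, COX7A2 from -0.031 to 0.084, NDUFA4 from -0.048 to 0.17 and NDUFA4L2 from -0.037 to 0.11.

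Deviations of libraries with the same replicate number correlated by -0.228 and -0.247 between the TARDBP hairpin and control hairpins 1 and 2, and by 0.232 between the controls. At 2 libraries a group the sign turns on which library is numbered 1. These values therefore cannot tell whether the libraries were paired. With a replicate block, 6 members were higher and 21 lower against the mean of both controls, and 27 of the 29 calls were kept. At 2 libraries a group and 3 residual degrees of freedom, rows near the floor such as COX4I2 and NDUFA4L2 could show only large differences.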

Other observations

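The genes next to ATP5F1B, NDUFB5, COX4I1 and COX6B1 were read from the order of RefSeq genes on GRCh38.p14, a choice made after their values were seen. EMC8, a subunit of the membrane protein complex of the endoplasmic reticulum, lies 151 bases from COX4I1. It had 7.45 and 7.01 CPM with the TARDBP hairpin, against 13.97 and 18.4 CPM with control hairpin 1 and 18.8 and 24.8 CPM with control hairpin 2. Both knockdown libraries lay below all controls, and EMC8 was lower than the mean of both controls by a log2 fold change of -1.38 (edgeR adjusted p = 0.000381), where COX4I1 was higher (0.95). The control hairpins differed in EMC8 by 0.43 (edgeR adjusted p = 0.0816, not called) and in COX4I1 by 2.46, with the smaller values under control hairpin 1 in both genes. Whether the differences of the 2 genes are linked was not tested.

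MRPL47, a mitochondrial ribosomal protein, lies 148 bases from NDUFB5. It had 22.6 and 22.2 CPM with the TARDBP hairpin, against 17.1 and 20.7 CPM with control hairpin 1 and 27.6 and 32.2 CPM with control hairpin 2, and was not called against the mean of both controls (log2 fold change -0.09, edgeR adjusted p = 0.555). NDUFB5 was higher there by 1.38. MRPL47 was lower than control hairpin 2 (-0.42, edgeR adjusted p = 0.0281). With control hairpin 2 it was higher than with control hairpin 1 (0.66, edgeR adjusted p = 0.00489). USP13, a ubiquitin protease 25393 bases away on the other side of NDUFB5, had 16.04 and 17.3 CPM with the TARDBP hairpin, against 25.9 and 27.4 CPM with control hairpin 1 and 40.2 and 45.6 CPM with control hairpin 2. It was lower than the mean of both controls by a log2 fold change of -1.02 (edgeR adjusted p = 0.000128) and lower than each control (-0.68 and -1.36). BAZ2A, which overlaps the end of ATP5F1B on that map, had 94.0 and 103 CPM with the TARDBP hairpin, against 131 and 114 CPM with control hairpin 1 and 116 and 115 CPM with control hairpin 2, a log2 fold change of -0.27 (edgeR adjusted p = 0.0296) beside -1.92 for ATP5F1B. PTGES3, on the other side of ATP5F1B, was not called against the mean of both controls (-0.11, edgeR adjusted p = 0.359). It was lower than control hairpin 2 (-0.48, edgeR adjusted p = 0.00755). With control hairpin 2 it was higher than with control hairpin 1 (0.74, edgeR adjusted p = 0.00133). IRF8, ETV2 and UPK1A, next to COX4I1 and COX6B1, had too few counts to be tested.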
